A study of Homo sapiens with 24 samples.

Results

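The response to interferon gamma (IFNγ) of SW-13 cells depleted of SUZ12 was examined on 6 of the 24 arrays of the siRNA experiment: 3 of siSUZ12 cells exposed to IFNγ for 6 hours and 3 of siSUZ12 cells left untreated. The arrays were chosen by their labels and not by any measured value. SW-13 cells come from a human carcinoma of the adrenal cortex and lack BRG1, an ATPase of the SWI/SNF chromatin remodelling complex, so every group shared that deficiency. All 6 cultures received 50 nM siSUZ12 in repeated transfections with DharmaFECT-1. The IFNγ dose was given in the methods as 0.1 mg/ml. The other 18 arrays held the same pair of conditions, with 3 biological replicates each, in cells given 50 nM siCtrl, in cells given siCtrl with 75 nM siBRM and in cells given siSUZ12 with 75 nM siBRM. BRM is the other ATPase of SWI/SNF. The siBRM groups therefore received more siRNA in total than the groups without it, and no group had the larger total without siBRM.

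IFNγ binds a receptor on the cell surface, and signalling from that receptor switches on interferon-stimulated genes (ISGs), among them transcription factors, antiviral proteins and components of antigen presentation. SUZ12 is a core subunit of Polycomb repressive complex 2 (PRC2), which methylates histone H3 at lysine 27 and keeps genes silent. The comparison asks which transcripts respond to IFNγ once that subunit is depleted.

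The arrays were Illumina BeadChips, on which the brightness of a probe measures the abundance of the transcript it binds. The deposited signals of 47231 probes per array were scaled to a common array mean and taken to the log2 scale. The mean unscaled signal of the 6 siSUZ12 arrays ran from 552 to 635, and each array detected between 15565 and 16799 probes, taking a detection p-value under 0.01 as the limit. Log2 signals correlated at 0.9944 to 0.9952 between arrays of the same condition and at 0.9908 to 0.9919 between untreated and IFNγ arrays. Whether background was subtracted is not given in the sources used here. Probes that no untreated siSUZ12 array detected but that IFNγ raised still had untreated means of 65.9 to 129.7, so folds from such levels depend on the background and may be understated. None of the 47231 probe IDs was paired with a gene name in the tables used here. Results are therefore given for probes, and the depletion of SUZ12, the markers of the cell line and known ISGs were not analysed here. In bulk cultures, fewer responding cells and less RNA per cell cannot be told apart.

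IFNγ raised 130 probes by ≥ 2-fold in siSUZ12 cells, with an adjusted p under 0.05 (limma, Benjamini-Hochberg over all probes, 16 residual degrees of freedom from the 24 arrays), which was 0.275% of all probes. Without the 2-fold limit, 565 probes (1.2% of all probes) rose and 336 (0.711%) fell. No probe fell by 2-fold in this fit, whereas 3990 were lower at an unadjusted p-value below 0.05 and 6 fell by 2-fold after background correction with neqc. The balance of rises and falls moved with the scaling. Of the probes past the adjusted threshold, 62.7% rose and 37.3% fell when arrays were scaled to their means, against 85.3% and 14.7% when they were scaled to their medians. With only the 6 arrays in the fit the shares were 73.5% and 26.5%, and among probes detected on at least 3 arrays they were 51.2% and 48.8%.

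**Figure D1:**
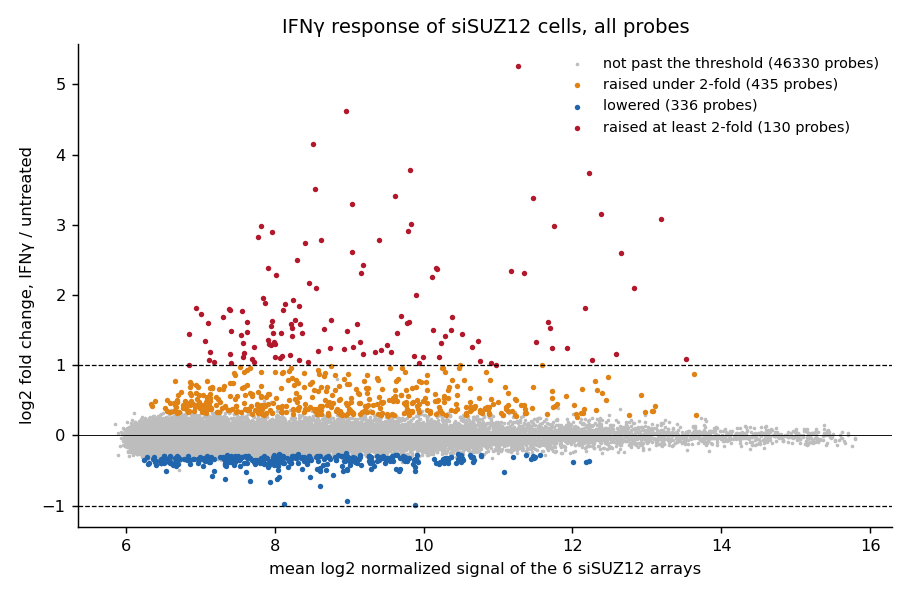
Change of every probe in siSUZ12 cells, as log2 fold change by IFNγ (vertical axis) against the mean log2 normalized signal of the 6 arrays (horizontal axis), with dashed lines at 2-fold. The 130 probes raised ≥ 2-fold (red) reach a log2 change of 5.26, while the 336 lowered probes (blue) lie between -0.99 and -0.26.

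The rises of the 130 probes were mostly small, with a long upper tail. From 2-fold to 3-fold were 70 probes, from 3-fold to 4-fold another 24, from 4-fold to 8-fold 24, from 8-fold to 16-fold 9, and above 16-fold 3. Their median log2 change was 1.52, with quartiles at 1.24 and 2.15, beside a median of -0.05 over all probes. The 5 probes just inside the 2-fold limit had log2 changes of 1.01 to 1.03, and the 5 highest just outside it 0.966 to 0.998. The median standard deviation of a raised probe's log2 signal over 3 arrays was 0.08 in either condition. On each of the 130 probes the lowest IFNγ array exceeded the highest untreated array, which held for 4.33% of all probes. The 130 were called on these same arrays, so this is a description. Together the 130 probes took 0.288% ± 0.0026 (SD, n = 3) of the signal of the untreated siSUZ12 arrays and 1.15% ± 0.017 (SD, n = 3) of that of the IFNγ arrays. In siCtrl cells the same probes took 0.262% ± 0.0052 (SD, n = 3) and 0.751% ± 0.0092 (SD, n = 3).

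The largest rise in siSUZ12 cells was at probe ILMN_1708375, followed by ILMN_3239965, an order that turned with neqc (log2 changes of 5.58 and 6.34). Its normalized signal on the 3 untreated siSUZ12 arrays was 400.3, 398 and 394, and on the 3 arrays with IFNγ it was 16245, 14749 and 14863. Both sets of arrays were tight and far apart, and the log2 change was 5.26 with a standard error of 0.08 (adjusted p = 1.13e-32, limma), or 38.4-fold. The same probe measured 405, 420.2 and 399.7 in untreated siCtrl cells and 11977, 11174 and 12721 with IFNγ, a log2 change of 4.87 (adjusted p = 1.45e-31, limma). Every array with IFNγ was thus well above every untreated array in siCtrl cells too. The log2 difference between the inductions was 0.39 with a standard error of 0.11 (adjusted p = 0.252, limma), so the larger induction in siSUZ12 cells did not pass the test. It did pass with 64 added to each signal (0.39, adjusted p = 0.0149), with only detected probes (0.39, adjusted p = 0.0483) and with a trended, robust variance (0.39, adjusted p = 0.0307). In siBRM cells the corresponding difference was 0.16 (adjusted p = 1, limma), on arrays of their own. ILMN_1708375 was detected on all 24 arrays, so it was detected without siSUZ12 and without IFNγ.

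Probe ILMN_3239965 came next, and no untreated array of any group detected it. Its signal was 89.6, 102.5 and 109 on the untreated siSUZ12 arrays and 2439, 2382 and 2592 with IFNγ. The fitted log2 change was 4.62 with a standard error of 0.09 (adjusted p = 1.25e-28, limma). Its size is uncertain, since the untreated level was not separated from background, and it was 6.34 with neqc. In siCtrl cells with IFNγ the signal stayed at 90.4, 92.5 and 94.1, within the range of the untreated siCtrl arrays, 84.9 to 101.6. The log2 changes on the siSUZ12 + siBRM arrays were not used to pick the probe, though these arrays shared in the fitted spread. There the signal was 89.4, 96.6 and 97.5 untreated and 2099, 1792 and 1585 with IFNγ. On the siCtrl + siBRM arrays with IFNγ it was 95.6, 96.7 and 85.1. The induction in siBRM cells differed between siSUZ12 and siCtrl by a fitted log2 of 4.23 with a standard error of 0.13 (adjusted p = 3.55e-22, limma), again over levels at background. In the 4 siRNA backgrounds this probe was detected only on the 6 arrays of siSUZ12 cells exposed to IFNγ, with or without siBRM. Without IFNγ its level did not pass the test for an effect of siSUZ12 (log2 difference 0.10, adjusted p = 0.639, limma).

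**Figure D2:**
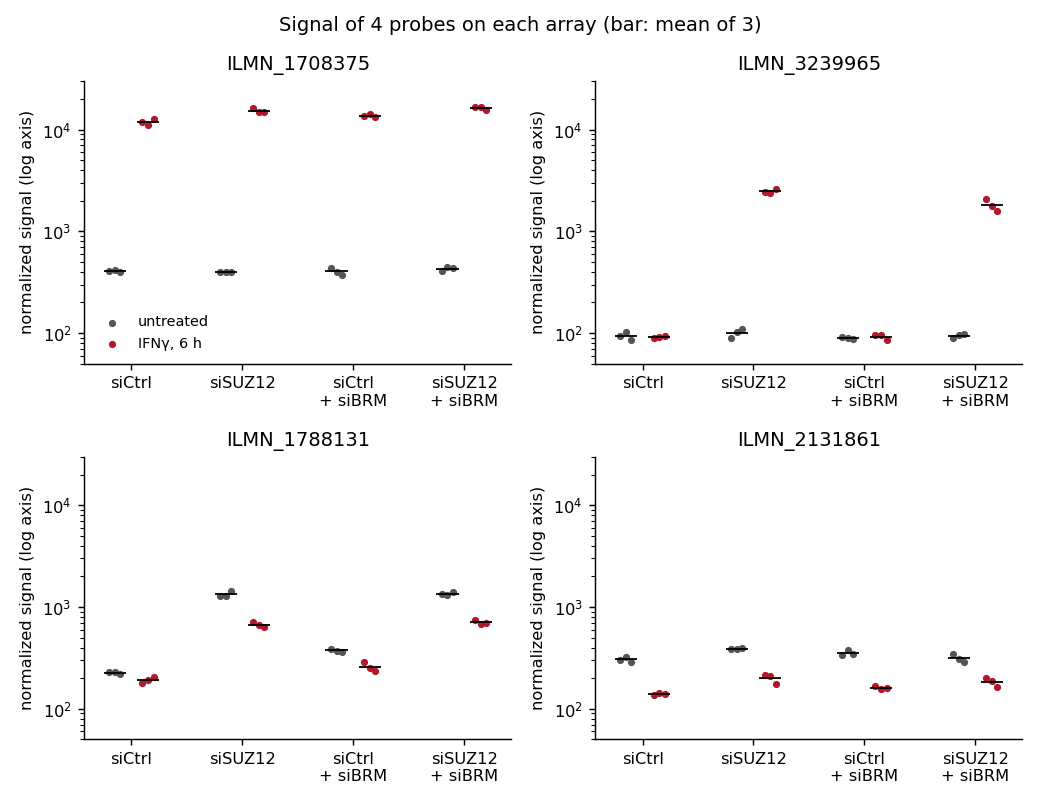
Normalized signal (log axis) on each of the 24 arrays for the 2 probes with the largest rise and the 2 with the largest fall in siSUZ12 cells. Points are arrays, bars are means of 3, grey is untreated and red is IFNγ. ILMN_1708375 rises in all 4 siRNA backgrounds, ILMN_3239965 only where siSUZ12 was given, and ILMN_1788131 falls from a mean of 1334 to 671 in siSUZ12 cells.

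The 130 probes fell into classes by whether they were detected before IFNγ. No untreated siSUZ12 array detected 32 of them (24.6%), and these are called silent. All 3 untreated arrays detected 93 (71.5%), and these are called expressed. Another 5 were detected on 1 or 2 untreated arrays. Over all 47231 probes, no untreated siSUZ12 array detected 29463 and all 3 detected 15034. Every one of the 130 was detected on all 3 siSUZ12 arrays with IFNγ, against 14946 of all probes. The classes were read from the same arrays as the rise, so a silent member had to rise to be among the 130, and its values on these arrays are a description. The siBRM arrays had no part in that choice beyond sharing in the fitted spread. All 130 were also called with only the compared siSUZ12 arrays in the fit. The probes were still chosen for their rise in siSUZ12 and not in siCtrl cells, which favours a larger induction with siSUZ12 on any arrays.

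For the 32 silent probes the median signal on the 3 untreated siSUZ12 arrays was 95.8, 101.9 and 103.9, and on the 3 IFNγ arrays it was 315, 295 and 309.6. The 2 conditions did not overlap, and the median log2 change was 1.65, with single probes from 1.01 to 4.62. In siCtrl cells their median signal was 94.6, 100.1 and 90.4 untreated and 134, 124 and 129.5 with IFNγ. That rise was smaller, a median log2 of 0.37, although 16 of the 32 still rose past the adjusted threshold (limma), against 0.593% of all probes. Only 3 of the 32 rose ≥ 2-fold in siCtrl cells, against 0.123% of all probes. No siCtrl untreated array detected any of the 32, so the silent state before IFNγ was common to both.

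After IFNγ the siCtrl arrays separated the silent probes further. All 3 siCtrl arrays with IFNγ detected 10 of the 32, some of them detected 7, and none detected 15. Those 15 had a median signal of 95.9 in untreated and 312 in IFNγ-treated siSUZ12 cells, and of 92.1 and 100.4 in siCtrl cells. Their median log2 change was 1.81 in siSUZ12 and 0.11 in siCtrl cells, a gap that follows from how the 15 were picked on these arrays. Background correction with neqc moved the medians to 3.16 and 0.10, and adding 64 to each signal moved them to 1.29 and 0.06. The 10 probes that all siCtrl arrays detected with IFNγ had medians of 1.67 and 0.78.

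The same classes were then read on the siBRM arrays. All 32 silent probes rose with IFNγ in siSUZ12 + siBRM cells past the adjusted threshold (limma), against 1.44% of all probes, and 25 did so ≥ 2-fold, against 0.296%. Their median log2 change was 1.58 there and 0.57 in siCtrl + siBRM cells, where 23 rose, against 0.987% of all probes, and 5 did so ≥ 2-fold, against 0.159%. The induction itself was higher in siSUZ12 + siBRM than in siCtrl + siBRM cells at 17 of the 32 (adjusted p-value below 0.05, limma), against 0.0974% of all probes, and lower at none, against 0.0191%. The median log2 difference over the 32 was 0.66, and it was above 0 at every one of them. For the 15 probes that siCtrl arrays never detected, the median was 1.62 in siSUZ12 + siBRM and 0.17 in siCtrl + siBRM cells. The difference in induction was past the threshold at 13 of the 15, and 14 of the 15 were detected on all 3 siSUZ12 + siBRM arrays with IFNγ. No siCtrl + siBRM array with IFNγ detected 13 of the 15.

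For the 93 expressed probes the median signal went from 400.3, 398 and 357 on the untreated siSUZ12 arrays to 1411, 1382 and 1312 with IFNγ. In siCtrl cells it went from 337, 309 and 312 to 908, 944 and 932. The median log2 change was 1.497 in siSUZ12 and 1.10 in siCtrl cells, with 53 of the 93 rising ≥ 2-fold in the latter (0.123% of all probes did) and 89 past the adjusted threshold (0.593% did). With 64 added to each signal, the median log2 change in siSUZ12 cells was 1.31 for the expressed and 1.16 for the silent probes. In siBRM cells the medians of the expressed probes were 1.53 with siSUZ12 and 1.27 with siCtrl. There the induction was higher after siSUZ12 at 12 of the 93, against 0.0974% of all probes, and lower at 2, against 0.0191% (adjusted p-value below 0.05, limma). The median difference in siBRM cells was 0.21 for the expressed and 0.66 for the silent probes. The 5 probes detected on 1 or 2 untreated arrays had medians of 1.63 in siSUZ12 and 0.82 in siCtrl cells.

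**Figure D3:**
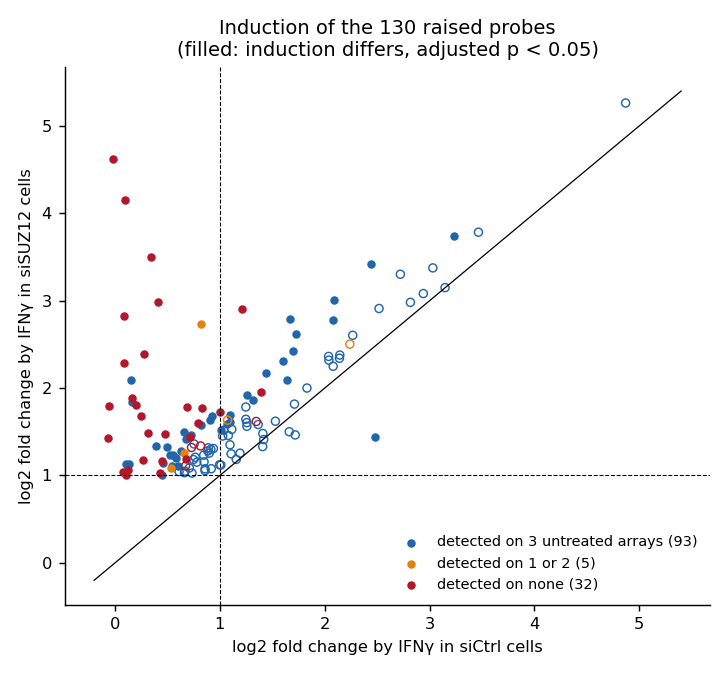
Log2 fold change by IFNγ in siSUZ12 cells (vertical axis) against that in siCtrl cells (horizontal axis) for the 130 raised probes, coloured by how many untreated siSUZ12 arrays detected them. Filled points passed the test of the difference in induction, the solid line marks equal induction and the dashed lines mark 2-fold. The 32 silent probes (red) lie at siCtrl values of -0.07 to 1.39. Of the 93 expressed probes (blue), 88 lie above the line, and 64 of the 93 are within 1.5-fold of it.

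Across the 93 expressed probes, the sizes of the log2 changes in siSUZ12 and siCtrl cells rose together (r = 0.894, rho = 0.789, n = 93 probes). Across the 32 silent probes they did not (r = -0.17, rho = -0.08, n = 32 probes). The siCtrl changes of these 32 ran only from -0.07 to 1.39, and no siCtrl array with IFNγ detected 15 of them. With values so near background, the low r cannot show whether the 2 responses were related. Against siSUZ12 + siBRM cells, r was 0.963 for the expressed and 0.890 for the silent probes. These are descriptions across probes, which are not independent, come from the same arrays and were chosen on the siSUZ12 arrays. The folds in siSUZ12 and siCtrl cells were within 1.5-fold of each other at 64 of the 93 expressed probes (68.8%) and at 5 of the 32 silent ones (15.6%).

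Seen from the whole set, 20 of the 130 probes had no rise past the adjusted threshold in siCtrl cells. Their median log2 change was 1.80 in siSUZ12 and 0.13 in siCtrl cells, and the highest siCtrl value was 0.34. That gap follows from how the 20 were picked on these arrays. In siSUZ12 + siBRM cells all 20 rose past the adjusted threshold (limma), against 1.44% of all probes. The median was 1.66 there, beside 0.20 in siCtrl + siBRM cells. The induction in siBRM cells was higher after siSUZ12, past the threshold, at 17 of the 20, against 0.0974% of all probes. No untreated siSUZ12 array detected 16 of these 20 probes, against 29463 of all 47231, and all 3 detected 4, against 15034.

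The set raised in siSUZ12 cells recurred when siBRM was added. In siSUZ12 + siBRM cells IFNγ raised 140 probes ≥ 2-fold. The lists had 116 probes in common, which was 89.2% of the 130 and 82.9% of the 140. Their log2 changes share no array, though the same fit called both lists. Of all probes, 0.296% were raised ≥ 2-fold in siSUZ12 + siBRM cells. Of the 130, 58 were raised ≥ 2-fold in all 4 siRNA backgrounds. These 58 were all the probes raised ≥ 2-fold in siCtrl cells, 0.123% of all probes. In siCtrl + siBRM cells 0.159% of all probes were raised ≥ 2-fold. Of the 130, 44 were raised ≥ 2-fold in both siSUZ12 groups but in neither siCtrl group. The 44 fell short of the 2-fold call in siCtrl groups, which does not make them unresponsive there. Past the adjusted threshold alone, 110 of the 130 rose in siCtrl cells, against 0.593% of all probes. In siCtrl + siBRM cells 117 did, against 0.987%. IFNγ raised 75 probes ≥ 2-fold in siCtrl + siBRM cells, 72 of which were among the 130, themselves 0.275% of all probes. Those 75 probes were chosen by log2 changes on neither the siSUZ12 nor the siCtrl arrays without siBRM, though these arrays shared in the fitted spread. Their median log2 change was 1.64 in siSUZ12 and 1.31 in siCtrl cells. The induction was higher in siSUZ12 cells at 23 of the 75 (adjusted p-value below 0.05, limma), against 0.182% of all probes, and lower at 2, against 0.0169%. In siBRM cells, whose siCtrl arrays had chosen these 75, their median log2 difference in induction was 0.16. Over all probes the induction was ≥ 2-fold higher at 0.0423%.

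**Figure D4:**
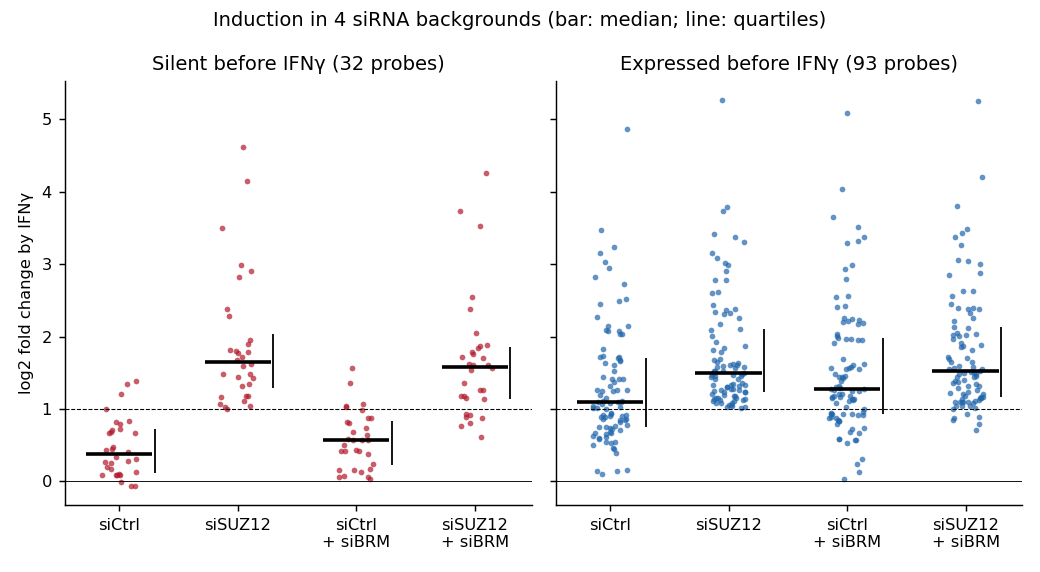
Log2 fold change by IFNγ in each siRNA background for the 32 probes silent before IFNγ (left) and the 93 expressed before it (right) in siSUZ12 cells. Points are probes, bars are medians and thin lines span the quartiles; the dashed line marks 2-fold. The silent medians are 0.37 (siCtrl), 1.65 (siSUZ12), 0.57 (siCtrl + siBRM) and 1.58 (siSUZ12 + siBRM), and the expressed medians 1.10, 1.497, 1.27 and 1.53.

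The untreated level of the 130 probes was read on the siBRM arrays, since the untreated siSUZ12 arrays already enter the response. In untreated siBRM cells siSUZ12 raised 43 of the 130 (33.1%) past the adjusted threshold (limma), against 5.04% of all probes, and lowered 4 (3.08%), against 2.98%. The median log2 difference was 0.16, beside 0.04 over all probes, and 1 of the 43 reached 2-fold. Of the 93 expressed probes 40 were raised and 4 lowered, and of the 32 silent probes 3 were raised and none lowered. Without siBRM, the untreated siSUZ12 and siCtrl cells differed by a median log2 of 0.10 over the 130 probes. There siSUZ12 raised 42 (32.3%) past the adjusted threshold (limma), against 8.16% of all probes, and lowered 14 (10.8%), against 5.83%. These counts rest on the untreated arrays that also enter the response.

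One expressed probe stood apart from the rest, chosen here after its values were seen because it was the only one of the 130 whose induction was lower after siSUZ12 past the adjusted threshold. Its mean signal was 889 untreated and 2418 with IFNγ in siSUZ12 cells, and 360 untreated and 2016 with IFNγ in siCtrl cells. The level with IFNγ was therefore close in both, and the untreated level was not. The log2 induction was 1.44 in siSUZ12 and 2.48 in siCtrl cells, a difference of -1.04 (adjusted p = 6.53e-08, limma). In siBRM cells the means were 1165 and 2402 with siSUZ12 and 498 and 2300 with siCtrl, and the difference was -1.16 (adjusted p = 5.92e-09, limma).

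Below the 2-fold limit, 435 probes rose by less, 117 of them by at least 1.5-fold. These too were chosen for their rise in siSUZ12 and not in siCtrl cells, which favours a larger induction with siSUZ12 on any arrays. The median log2 change of the 435 was 0.44 in siSUZ12 and 0.26 in siCtrl cells, where 146 rose past the adjusted threshold (limma), against 0.593% of all probes. In siBRM cells 334 rose with siSUZ12 (median 0.46), against 1.44% of all probes, and 232 with siCtrl (median 0.33), against 0.987%. The induction in siBRM cells was higher after siSUZ12 at 16 of the 435, against 0.0974% of all probes, and lower at 1, against 0.0191%.

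The 336 lowered probes moved little. Their log2 changes lay between -0.99 and -0.26, with a median of -0.35, and 10 of them fell by at least 1.5-fold. Their median signal was 338, 343 and 337 on the untreated siSUZ12 arrays and 263, 255 and 260.2 with IFNγ. At 333 of the 336 every IFNγ array was below every untreated array, which held for 12.9% of all probes. The 336 were called on these same arrays, so this is a description. The count of lowered probes depended on single arrays. It was 191, 143 and 205 without untreated replicate 1, 2 or 3, and 146 and 154 without IFNγ replicate 2 or 3, and it was 121 when arrays were scaled to their medians, which moved the median of all probes from -0.05 to 0.01.

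The lowered probes were also read on arrays whose log2 changes did not choose them. Those arrays shared in the fitted spread, so they were not independent of the choice. With only the compared siSUZ12 arrays in the fit, 177 probes were lowered and 166 of the 336 were kept. The 336 were also chosen for their fall in siSUZ12 and not in siCtrl cells, which favours a larger fall with siSUZ12 on any arrays. In siSUZ12 + siBRM cells 132 of the 336 (39.3%) fell past the adjusted threshold (limma), against 0.915% of all probes, and the median log2 change was -0.23. The 132 made up 30.6% of the 432 probes lowered there. In siCtrl cells 30 fell, against 0.127% of all probes, with a median of -0.14, and in siCtrl + siBRM cells 62 fell, against 0.315%, with a median of -0.16. The induction in siBRM cells was lower after siSUZ12 at 4 of the 336, against 0.0191% of all probes, and higher at none, against 0.0974%. Of the 10 probes lowered by at least 1.5-fold, 9 fell in siSUZ12 + siBRM, 4 in siCtrl and 8 in siCtrl + siBRM cells. In untreated siBRM cells, siSUZ12 raised 99 of the 336 (29.5%), against 5.04% of all probes, and lowered 29 (8.63%), against 2.98%.

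**Figure D5:**
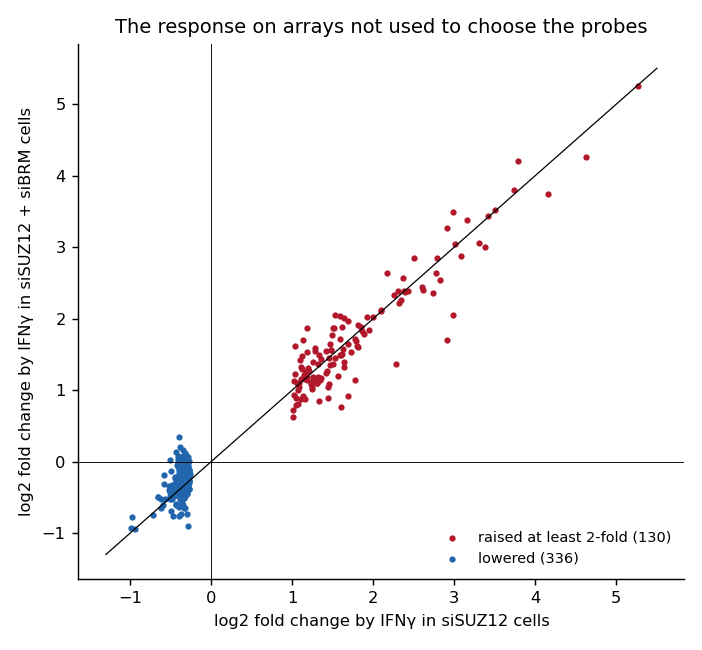
Log2 fold change by IFNγ in siSUZ12 + siBRM cells (vertical axis) against that in siSUZ12 cells (horizontal axis) for the 130 raised probes (red) and the 336 lowered probes (blue), with the line of equal change. The groups share no array. The raised probes follow the line from 0.62 to 5.25 in siBRM cells, while the lowered probes spread from -0.95 to 0.34.

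The largest fall was at probe ILMN_1788131, just ahead of ILMN_2131861, and with neqc the order turned (log2 changes of -1.08 and -1.38). Its signal was 1289, 1290.4 and 1421 on the untreated siSUZ12 arrays and 715, 660.2 and 639 with IFNγ. The sets did not overlap, and the log2 change was -0.99 with a standard error of 0.08 (adjusted p = 3.19e-11, limma). In siCtrl cells its signal was much lower throughout, at 232, 228 and 217 untreated and 179, 190.4 and 203 with IFNγ, a log2 change of -0.25 (adjusted p = 0.283, limma). The untreated siSUZ12 level was thus 5.90-fold the siCtrl level. The log2 difference between the responses was -0.74 with a standard error of 0.11 (adjusted p = 0.000294, limma). That call was lost with neqc (-0.68, adjusted p = 0.0535), without replicate 2 (-0.77, adjusted p = 0.0708) and without replicate 3 (-0.59, adjusted p = 0.204). In siBRM cells the probe fell with siSUZ12 (-0.93, adjusted p = 1.41e-10, limma) and with siCtrl (-0.54, adjusted p = 3.14e-05, limma), and the difference of -0.39 did not pass the test (adjusted p = 0.476, limma).

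Probe ILMN_2131861 fell nearly as far. Its signal was 385, 388 and 396 on the untreated siSUZ12 arrays and 212, 211 and 173 with IFNγ, a log2 change of -0.98 with a standard error of 0.09 (adjusted p = 3.3e-10, limma). In siCtrl cells it went from 305, 326 and 290.2 to 137, 143 and 139, a log2 change of -1.14 (adjusted p = 1.38e-11, limma). The fall was therefore present without siSUZ12, and the difference between the responses was 0.16 with a standard error of 0.12 (adjusted p = 0.958, limma). The changes in siBRM cells were -0.77 with siSUZ12 (adjusted p = 7.25e-08, limma) and -1.14 with siCtrl (adjusted p = 1.11e-11, limma).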

How the data were processed

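Total RNA of SW-13 cells was labelled as cRNA and hybridized to 24 Illumina arrays. The authors deposited the signal intensity of 47231 probes per array, not normalized between arrays, and the detection p-value of each intensity from BeadStudio. Whether background was subtracted is not given in the sources used here. Groups came from the sample titles, with 3 biological replicates per group by the methods, and 0 columns of other samples were present. Each array was scaled so that its mean equalled the mean of the array means, in place of the average normalization that the authors name, and log2 was taken of every probe, with no filter. limma 3.58.1 in R 4.3.3 was fitted to all 24 arrays with 8 group means, and contrasts gave log2 changes, standard errors and Benjamini-Hochberg adjusted p-values over 47231 probes. Probes were called raised at 2-fold and an adjusted p-value below 0.05, lowered at the adjusted p-value alone, and detected at a detection p-value below 0.01. The fit was tested on simulated data. The smallest p an exact permutation of 3 against 3 arrays allows is 0.1, and 3 arrays per group limit the precision. No gene name was found for any probe ID, so rules written for genes, their marker lists and their sequences were not used. The rule for named probes took the 2 largest rises and the 2 largest falls past the adjusted threshold whose arrays did not overlap. Probes, classes and tests were chosen with earlier results of these data known. The alternatives were quantile normalization, neqc, median scaling, 64 added to each signal, a detection filter, a fit of the compared arrays only, a replicate block, trended and robust variance, other call limits and leaving out arrays. The replicate number was kept out of the fit, since same-numbered arrays did not deviate together for every number. Figures were drawn with matplotlib 3.10.9.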

Additional observations from a re-analysis of the deposited data

Results flagged for a closer look

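The IFNγ response differed between siSUZ12 and siCtrl cells by the test of the difference itself. The induction was ≥ 2-fold higher in siSUZ12 cells at 20 probes (0.0423% of all probes) and ≥ 2-fold lower at 1 (adjusted p-value below 0.05, limma). In siBRM cells, on other arrays, 18 of the 20 were past the adjusted threshold in the same direction, against 0.0974% of all probes. The 1 lower probe was lower there too, against 0.0191%. Among named probes, the log2 difference in induction was 4.64 at ILMN_3239965 (standard error 0.13, adjusted p = 1.8e-23, limma) and 6.36 with neqc, its size being uncertain because the levels it is set against were not detected, with 3 of 3 siSUZ12 arrays above every siCtrl array with IFNγ. It was -0.74 at ILMN_1788131 (adjusted p = 0.000294, limma), where siSUZ12 alone had raised the untreated level by a log2 of 2.56. The same untreated arrays enter both values. The call at ILMN_1788131 was lost with neqc, without replicate 2 and without replicate 3. In siBRM cells its difference of -0.39 did not pass the test (adjusted p = 0.476, limma).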

How the results depend on the processing

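The 130 raised probes remained called under quantile normalization, neqc, median scaling, the detection filter, the fit of the 6 arrays, the replicate block and trended, robust variance, and 107 of them with 64 added. Leaving out an array or a replicate number gave 127 to 131 raised probes, with 125 to 129 of the 130 kept. Counts of raised probes in siSUZ12, siCtrl and siSUZ12 + siBRM cells were 214, 95 and 223 with neqc, 565, 280 and 679 on the adjusted p-value alone and 247, 137 and 275 at 1.5-fold. Probes of ≥ 2-fold higher induction after siSUZ12, 20 as reported, numbered 53 with neqc, 86 on the adjusted p-value alone and 65 at 1.5-fold. The 1 probe of lower induction became 2 with neqc, 0 with median scaling, 0 with 64 added, 8 on the adjusted p-value alone and 3 at 1.5-fold, and leaving out arrays gave 0 to 1, with 0 without replicate 1 and without siCtrl untreated replicate 1. Lowered probes, 336 as reported, numbered 121 with median scaling, 610 with 64 added, 677 with the detection filter, 177 in the fit of the 6 arrays, 515 with trended and robust variance, 10 at 1.5-fold and 0 at 2-fold, and leaving out arrays gave 54 to 317, with 51 to 218 of the 336 kept. The cause of these shifts was not tested. With the replicate block the counts were 130 raised, 374 lowered and 20 of higher and 1 of lower induction, and it changed no call of a named probe. Same-numbered siSUZ12 arrays deviated from their group means with correlations of 0.20, -0.03 and 0.18, and 4 of the 6 arrays correlated best with their own number, so the numbers were not taken to pair the arrays. No named probe turned the direction of its change in siSUZ12 cells or of its difference in induction without siBRM. The median log2 change of all probes did turn, from -0.05 to 0.01 with median scaling. The siCtrl + siBRM changes, the differences in siBRM cells and the untreated differences were not rerun under the alternatives. With neqc ILMN_3239965 rose more than ILMN_1708375 (6.34 against 5.58) and ILMN_2131861 fell more than ILMN_1788131 (-1.38 against -1.08). The mean of the probes of a gene needs gene names and was not run. Folds of dim probes depend on the background correction, as neqc shows.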
